A study of Mus musculus with 6 samples.

Results

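The genes described here carry glucose from the blood to lactate in mouse muscle: glucose transporters, the enzymes of glycolysis, lactate dehydrogenases, lactate carriers, the kinase that switches on glycogen breakdown, and a few branch enzymes. They were taken by name, as 36 gene symbols, with no threshold on a measured value. The deposited table lists 54532 gene rows, and 37 of them carry these symbols, because Aldoa names 2 rows. Of the 37 rows, 36 passed the filter on low counts and were tested. The row left out was Aldoc, the aldolase of brain, which had between 3 and 14 counts in a library.

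RNA was sequenced from muscle of mice bred on C57BL/6, with 3 libraries in each of 2 groups. All animals of both groups had both Igf2 alleles floxed (Igf2f/f), with loxP sites flanking exon 2. The Igf2 cKO animals were Mck-Cre+; Igf2f/f, so that Cre was driven by the muscle creatine kinase promoter, which works in striated muscle fibres and not in the other cells of the tissue. Controls were Mck-Cre-; Igf2f/f littermates, so Cre itself differs between the groups together with the deletion. The muscle sampled, the age and the sex are not in the labels, which also do not say whether a library came from 1 animal, and p-values measure the spread between these libraries. Libraries are called control 1 to 3 and cKO 1 to 3 after the numbers in their labels.

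Total counts ran from 16184371 to 17905203 per library. Igf2 itself, a growth factor of fetal life, was barely detected in either group, with 60, 43 and 39 counts in controls 1 to 3 and 33, 37 and 42 in cKO 1 to 3 (log2 fold change -0.31, adjusted p = 0.751, edgeR quasi-likelihood test with Benjamini-Hochberg adjustment). Its row counts the whole gene, so reads of exon 2 cannot be told from the rest. Muscle markers such as Acta1 and Ckm were abundant in all 6 libraries. The library cKO 2 stood apart: the summed level of 10 slow-fibre markers was 2883 CPM there (counts scaled to library size), 1522 to 1669 in the controls, and 623 and 650 in cKO 1 and cKO 3. For Slc2a1, the upstream Aldoa row, Pgam1, Ldhb, Ugp2, Bpgm, Pdk4 and Slc25a13, the estimate without this library stands beside the result. Because whole tissue was sequenced, fewer cells of a type and less RNA per cell cannot be told apart.

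Glycolysis breaks glucose down to pyruvate in the cytosol and yields ATP without oxygen. Fast muscle fibres run it at high flux from their own glycogen store, and lactate dehydrogenase then turns pyruvate into lactate, which leaves the fibre through monocarboxylate carriers. Many steps have a muscle isoform (Pfkm, Pgam2, Eno3) beside a form found in most tissues (Pfkl, Pgam1, Eno1). Slow fibres and heart rely more on the lactate dehydrogenase subunit Ldhb and the carrier Slc16a1, and fast fibres on Ldha and Slc16a3.

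None of the 36 tested rows differed between the genotypes at an adjusted p under 0.05 in edgeR's quasi-likelihood test with Benjamini-Hochberg adjustment over all 14867 genes tested, of which 37 (0.249%) passed. DESeq2 and limma-voom also called 0 of the 36. Adjusted p-values of the glycolysis and lactate genes ran from 0.376 to 0.999. At an unadjusted p under 0.05 there were 4 of 36 (11.1%), beside 9.93% of all genes tested: Slc2a1 was higher in Igf2 cKO (background 5.11%), and the upstream Aldoa row, Pgk1 and Bpgm were lower (background 4.82%). The same 4 rows were those whose groups did not overlap in CPM, 1 higher and 3 lower (11.1%), beside 15.5% of all genes, 7.83% higher and 7.67% lower. Both shares were near or under their background.

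The differences were small as well as uncalled. Log2 fold changes of Igf2 cKO over control ran from -0.35 to 0.48, with 18 rows above 0 and 18 below. Their median was -0.01, and that of all genes tested was 0.00. The median size of the difference, regardless of sign, was 0.13, beside 0.14 for all genes. The 95% interval of the difference lay within 2-fold either way for 34 of the 36 rows (94.4%, beside 78.9% of all genes), and within 1.5-fold for 19 of them (52.8%, beside 55.8%). The exceptions at 2-fold were Gapdh and Ldhb, whose libraries spread widely within a group. By the rule in the series text, an unadjusted p under 0.05 with a change of more than 2-fold, 0 of the 36 rows passed, beside 235 genes (1.58%) in all.

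**Figure D1:**
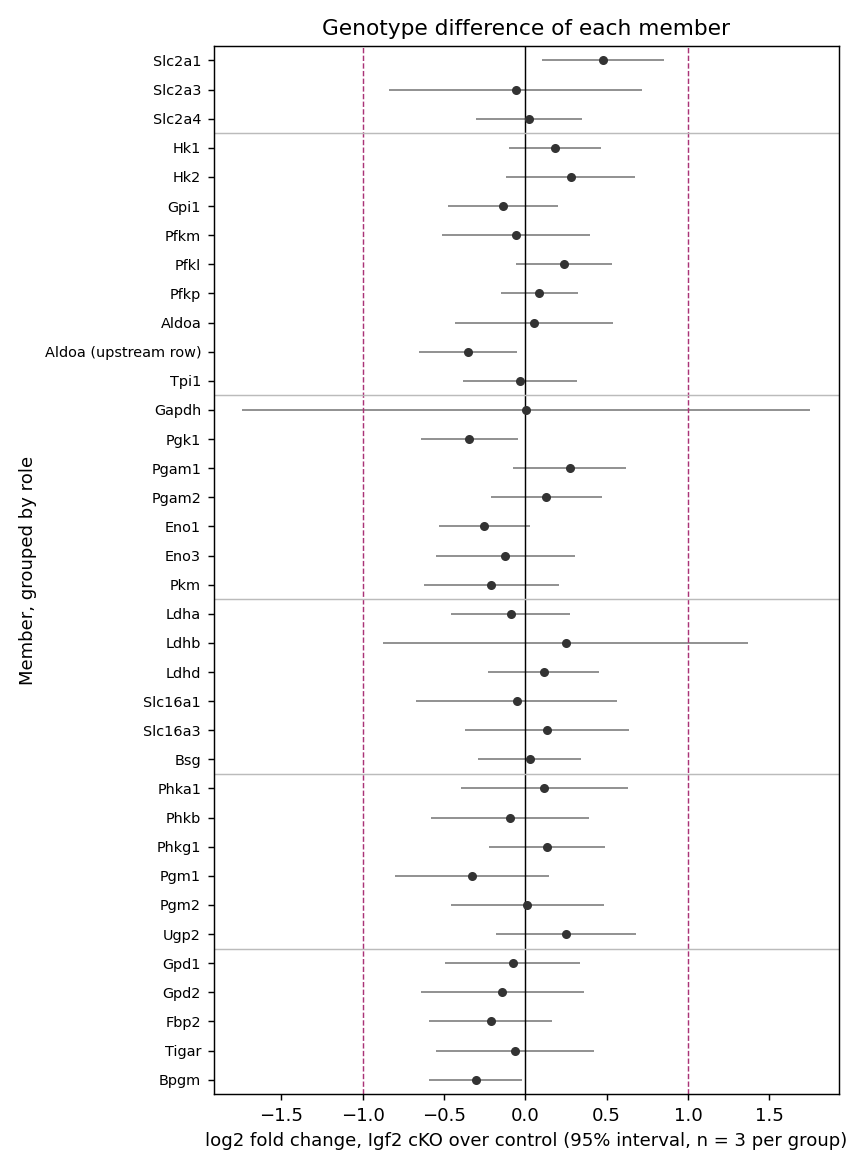
Log2 fold change of Igf2 cKO over control (x axis) for each of the 36 tested rows (y axis, grouped by role), with n = 3 libraries per group. Points are edgeR estimates, bars are 95% intervals and dashed lines mark 2-fold either way. Points lie between -0.35 and 0.48, and only the bars of Gapdh and Ldhb pass a dashed line.

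Glucose enters muscle fibres mainly through Slc2a4 (GLUT4), the transporter that insulin and contraction move to the surface, while Slc2a1 (GLUT1) serves basal uptake in most cell types and Slc2a3 (GLUT3) is best known from neurons. Slc2a4 (chromosome 11, 69942539 to 69948188, minus strand, GRCm38) was at 549, 656 and 759 CPM in controls 1 to 3 and at 667, 661 and 668 CPM in cKO 1 to 3. The Igf2 cKO values fell inside the range of the controls. Its log2 fold change was 0.02 ± 0.14 (SE), with a 95% interval of -0.30 to 0.35. Slc2a3 was low throughout, between 3.40 and 9.43 CPM, with overlapping groups.

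Slc2a1 (chromosome 4, 119108711 to 119137983, plus strand) had the largest difference of all 36 rows. It was at 15.9, 17.1 and 14.7 CPM in controls 1 to 3 and at 19.97, 28.1 and 18.4 CPM in cKO 1 to 3. All Igf2 cKO libraries were above all controls, and cKO 2 was the highest by a clear margin. The estimated log2 fold change of 0.48 ± 0.16 (SE; 95% interval from 0.10 to 0.85; unadjusted p = 0.0186) did not pass the test (adjusted p = 0.376, edgeR with Benjamini-Hochberg adjustment). Without cKO 2 the estimate was 0.27. Nerve sheath and endothelium are known for this transporter. Over the same libraries the summed markers of Schwann cells were 645, 241 and 427 CPM in controls 1 to 3 and 1073, 655 and 270 CPM in cKO 1 to 3, with 6 of 6 markers above 0, a median of 0.59 and none called. Endothelial markers summed to 1388 to 1478 CPM in the controls and 968 to 1543 CPM in Igf2 cKO, with 3 of 8 above 0 and none called. Red-cell markers went the other way, from 451 to 621 CPM in the controls to 314 to 359 CPM in Igf2 cKO, with 0 of 6 above 0, a median of -0.60 and none called. No Schwann, red-cell or endothelial marker was at 0 in every library. The part of nerve sheath, endothelium or other cells in the Slc2a1 value was not tested.

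The first steps trap glucose in the fibre and split it, and none of their 9 tested rows was called. Hk2, the muscle hexokinase that phosphorylates incoming glucose, was at 224, 298 and 339.9 CPM in controls 1 to 3 and at 306, 400.1 and 339 CPM in cKO 1 to 3. Control 1 was the lowest and cKO 2 the highest, and the groups overlapped (0.28 ± 0.17 SE; 95% interval from -0.12 to 0.67). Hk1, the hexokinase of most tissues, was at 31.3 to 39.7 CPM in the controls and 34.6 to 42.7 CPM in Igf2 cKO. Gpi1, which turns glucose 6-phosphate into fructose 6-phosphate, was at 739, 836 and 997 CPM in controls 1 to 3 and at 818, 718 and 802 CPM in cKO 1 to 3, and its groups also overlapped (-0.14 ± 0.15 SE).

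Phosphofructokinase commits the sugar to glycolysis, and Pfkm is its muscle subunit. Pfkm was at 2576, 3066 and 3902 CPM in controls 1 to 3 and at 3309, 2613 and 3258 CPM in cKO 1 to 3. The spread among the 3 controls was wider than the whole range of Igf2 cKO (log2 fold change -0.06 ± 0.20 SE). Pfkl, the liver form, and Pfkp, the platelet form, stayed between 19.5 and 30.3 CPM, with log2 fold changes of 0.24 and 0.09 and overlapping groups. Tpi1, which interconverts the triose phosphates, was at 1907, 1910.5 and 2172 CPM in controls 1 to 3 and at 2075, 1689 and 2084 CPM in cKO 1 to 3. Its difference was -0.03 ± 0.15 (SE), with cKO 2 the lowest library.

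Aldoa, the aldolase of muscle and red cells, splits fructose 1,6-bisphosphate and was the most abundant of these genes. Its main row (chromosome 7, 126795234 to 126800751, minus strand) was at 10742, 12518 and 13451 CPM in controls 1 to 3 and at 14323, 10765 and 12982 CPM in cKO 1 to 3. Control 1 and cKO 2 were the low libraries of their groups, and the groups overlapped (0.05 ± 0.21 SE). A second row named Aldoa lies directly upstream (chromosome 7, 126800790 to 126809108, minus strand). It was at 47.6, 51.1 and 48.8 CPM in controls 1 to 3 and at 46.4, 32.5 and 36.8 CPM in cKO 1 to 3, so that all Igf2 cKO libraries were below all controls, cKO 1 by little. Its log2 fold change of -0.35 ± 0.13 (SE) did not pass the test (unadjusted p = 0.0278, adjusted p = 0.426, edgeR with Benjamini-Hochberg adjustment). Without cKO 2 it was -0.24. The main row, which holds nearly all reads of the gene, showed no such separation.

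The ATP-yielding stage begins with Gapdh, the dehydrogenase often used as a reference gene, and its row varied more than that of any other tested gene of this group. Gapdh (chromosome 6, 125161715 to 125166467, minus strand) was at 49.5, 797 and 833 CPM in controls 1 to 3 and at 376, 612 and 699 CPM in cKO 1 to 3. Control 1 was far below every other library, and cKO 1 was the next lowest. Among 1522 genes with a mean of at least 100 CPM, 0 had a larger ratio of highest to lowest control than the 16.8 of Gapdh, and the median gene had 1.19. Over all 6 libraries, where the ratio of Gapdh is the same, 2 genes had a larger one. The next largest ratio among the glycolysis and lactate genes was 1.83, for Tigar. At 0.01 ± 0.76 (SE), the log2 fold change had a 95% interval from -1.74 to 1.75, so the data bound a genotype difference in this row only to about that width. Without control 1 it was -0.54, with an unadjusted p of 0.0674 (adjusted p = 0.644, edgeR with Benjamini-Hochberg adjustment), and limma-voom on all 6 libraries gave 0.74.

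Gapdh is also the gene of this group with the most near-copies in the genome. Of all 50-base windows of its main GENCODE transcript, 82.5% occur exactly in a transcript of another annotated gene, and at 100 bases the share was still 78.0%. The processed pseudogene Gm7336 (chromosome 7, 51746647 to 51747878, plus strand) carries the whole coding sequence of 1002 bases with 0 differences. The first 120 coding bases of both, from GENCODE M21, are shown because reads from them fit either gene equally well; the start codon is in them at base 1.
Gapdh: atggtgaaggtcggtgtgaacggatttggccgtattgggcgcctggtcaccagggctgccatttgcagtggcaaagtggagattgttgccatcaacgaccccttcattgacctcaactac
Gm7336: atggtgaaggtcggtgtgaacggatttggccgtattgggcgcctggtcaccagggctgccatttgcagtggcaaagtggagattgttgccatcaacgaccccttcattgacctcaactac

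The deposited counts were then compared between the Gapdh row and the rows that share its sequence. The Gapdh row held 914, 14251 and 12741 counts in controls 1 to 3 and 6747, 9883 and 11815 counts in cKO 1 to 3, a 15.6-fold range. The 212 pseudogene rows that share a 50-base window with it summed to 4516, 4499 and 4174 counts in controls 1 to 3 and to 3667, 3823 and 3571 counts in cKO 1 to 3, a 1.26-fold range. Gm7336 alone held 1822, 1435 and 1230 counts in controls 1 to 3 and 1141, 1322 and 1264 counts in cKO 1 to 3. Scaled to library size, the pseudogene sum was 244, 252 and 273 CPM in controls 1 to 3 and 205, 237 and 211 CPM in cKO 1 to 3. The low Gapdh library, control 1, was the lowest control on this scale, but by a small margin, and lay above every Igf2 cKO library. In that library alone the pseudogene rows held more counts than Gapdh. Adding the pseudogene counts to the gene gave a log2 fold change of -0.07. The sources used here do not say how reads that fit several genes were assigned, and the part of this step in the Gapdh values was not tested.

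**Figure D2:**
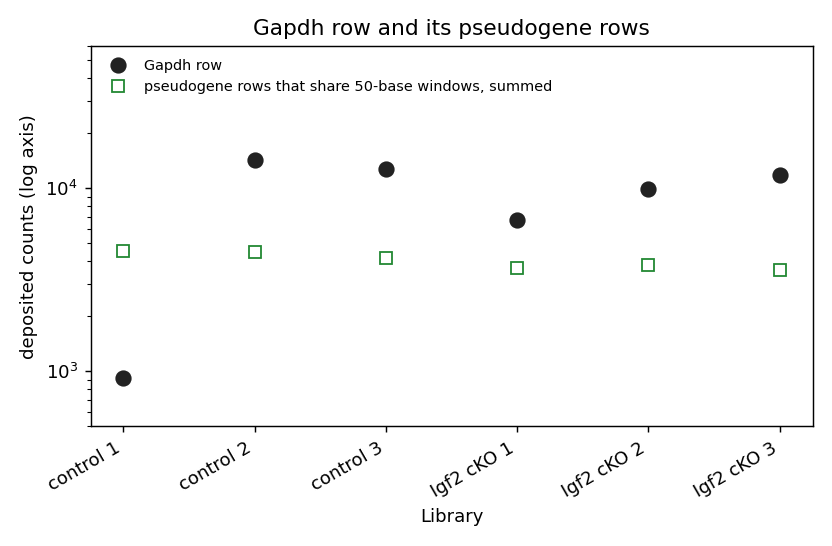
Deposited counts (y axis, log scale) in each library (x axis) for the Gapdh row (filled circles) and for the sum of the 212 pseudogene rows sharing an exact 50-base window with it (open squares). The Gapdh row falls to 914 in control 1 while the pseudogene sum stays between 3571 and 4516.

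Pgk1, the kinase that makes the first ATP of this stage, was the lower-glycolysis gene with the smallest p. Pgk1 (chromosome X, 106187100 to 106203699, plus strand) was at 1042, 1085 and 1232 CPM in controls 1 to 3 and at 892, 836 and 919 CPM in cKO 1 to 3. The 2 groups did not overlap, and the spread within Igf2 cKO was small. The difference of -0.34 ± 0.13 (SE; 95% interval from -0.64 to -0.05; unadjusted p = 0.0279) did not pass the test (adjusted p = 0.426, edgeR with Benjamini-Hochberg adjustment). Pseudogenes share 68.0% of the 50-base windows of Pgk1. Their rows held between 95 and 161 counts in a library, and adding them left the difference at -0.34.

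Phosphoglycerate mutase comes as a muscle form, Pgam2, and a form of most other tissues, Pgam1. Pgam2 was at 1604, 1912 and 1919 CPM in controls 1 to 3 and at 2107, 1816 and 2023 CPM in cKO 1 to 3, with overlapping groups (log2 fold change 0.13 ± 0.15 SE). Pgam1 was at 29.99, 31.4 and 27.3 CPM in controls 1 to 3 and at 29.5, 44.6 and 33.5 CPM in cKO 1 to 3. Only cKO 2 stood clearly above the controls (0.27 ± 0.15 SE), and without it the estimate was 0.09. Pseudogenes share 41.5% of the windows of Pgam1, so its counts are less certain than those of Pgam2, of which none is shared. The 3 pseudogene rows of Pgam1 held between 8 and 12 counts in a library, beside 418 to 720 for Pgam1 itself.

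Eno3, the muscle enolase, was at 4865, 5434 and 6405 CPM in controls 1 to 3 and at 5705, 4536 and 5111 CPM in cKO 1 to 3, and the groups overlapped (-0.12 ± 0.19 SE). Eno1, the enolase of most tissues, was at 179 to 202 CPM in the controls and 146 to 187 CPM in Igf2 cKO (-0.25 ± 0.12 SE, adjusted p = 0.551, edgeR with Benjamini-Hochberg adjustment), with 72.2% of its windows shared with other genes. Pkm, the pyruvate kinase of muscle, makes the second ATP and ends the pathway. It was at 3066, 3193 and 3896 CPM in controls 1 to 3 and at 3197, 2437 and 3158 CPM in cKO 1 to 3. The groups overlapped, with cKO 2 the lowest library (-0.21 ± 0.18 SE).

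Ldha, the lactate dehydrogenase subunit that favours lactate formation, was even across the libraries. It was at 2570, 2728 and 2924 CPM in controls 1 to 3 and at 2789, 2199.8 and 2739 CPM in cKO 1 to 3. Only cKO 2 lay outside the range of the controls, and the difference was -0.09 ± 0.16 (SE; 95% interval from -0.46 to 0.28). Ldhd, which oxidises D-lactate in mitochondria, was at 33.8 to 45.6 CPM in the controls and 40.1 to 52.4 CPM in Igf2 cKO.

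Ldhb, the subunit typical of slow fibres and heart, varied widely among the Igf2 cKO libraries. Ldhb (chromosome 6, 142490249 to 142507957, minus strand) was at 129, 226 and 236 CPM in controls 1 to 3 and at 102, 447 and 153 CPM in cKO 1 to 3. The highest and the lowest library were both Igf2 cKO. At 0.25 ± 0.49 (SE), the estimate had a 95% interval from -0.87 to 1.37, and without cKO 2 it was -0.63 (unadjusted p = 0.048, adjusted p = 0.464, edgeR with Benjamini-Hochberg adjustment). Within Igf2 cKO, slow-fibre markers were high in the same library, while among the controls their order was not that of Ldhb. Their sum was 1669, 1522 and 1566 CPM in controls 1 to 3 and 623, 2883 and 650 CPM in cKO 1 to 3. Of the 10, 2 were above 0, the median was -0.16, none was called and none was at 0 in every library. Myh7, the slow myosin, was at 311, 209.5 and 219.9 CPM in controls 1 to 3 and at 43.7, 410.2 and 53.0 CPM in cKO 1 to 3. The part of fibre type in the Ldhb values was not tested.

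Within Igf2 cKO, the lactate carriers varied with the same libraries. Slc16a1 (MCT1), the carrier of oxidative fibres that takes lactate up, was at 56.0, 86.2 and 99.1 CPM in controls 1 to 3 and at 50.8, 103 and 78.5 CPM in cKO 1 to 3. As for Ldhb, cKO 2 was the highest library and cKO 1 the lowest (-0.05 ± 0.27 SE). Slc16a3 (MCT4), the export carrier of glycolytic fibres, had the opposite order within Igf2 cKO. It was at 244, 260.2 and 375 CPM in controls 1 to 3 and at 382, 234 and 347 CPM in cKO 1 to 3, and its groups overlapped (0.13 ± 0.22 SE). Bsg (basigin), the membrane partner that both carriers need to reach the surface, was at 552, 604 and 703 CPM in controls 1 to 3 and at 670.1, 569 and 654 CPM in cKO 1 to 3, a difference of 0.03 ± 0.14 (SE).

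**Figure D3:**
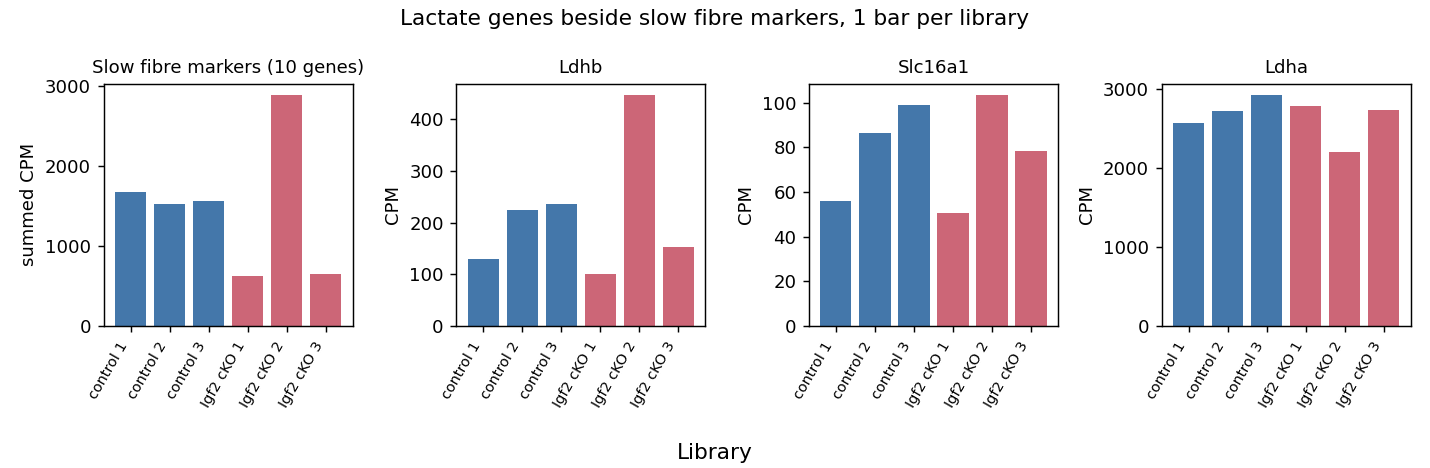
Summed level of the 10 slow-fibre markers and level of Ldhb, Slc16a1 and Ldha (y axes, CPM, from 0) in each library (x axis), with 1 bar per library, controls in blue and Igf2 cKO in red. The library cKO 2 is the highest for Ldhb (447 CPM), Slc16a1 (103 CPM) and the slow-fibre sum (2883 CPM), and the lowest for Ldha (2199.8 CPM).

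Phosphorylase kinase activates the enzyme that releases glucose units from glycogen, and the muscle form has the subunits Phka1 and Phkb and the catalytic Phkg1. Phka1 was at 562, 567 and 768 CPM in controls 1 to 3 and at 826, 472 and 760.4 CPM in cKO 1 to 3. The groups overlapped, and the lowest and the highest library were both Igf2 cKO (0.12 ± 0.22 SE). Phkb and Phkg1 were lowest in cKO 2 as well, at 271 and 420.1 CPM, with log2 fold changes of -0.09 and 0.13.

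Phosphoglucomutase carries the released glucose 1-phosphate into glycolysis. The table uses older names for this pair: its Pgm2 (ENSMUSG00000025791, chromosome 4) is named Pgm1 in GENCODE M21, and its Pgm1 (ENSMUSG00000029171, chromosome 5) is named Pgm2 there. The chromosome 4 gene, the main form in muscle, was at 1148, 1231 and 1465 CPM in controls 1 to 3 and at 1574, 934 and 1370.3 CPM in cKO 1 to 3, a difference of 0.01 ± 0.21 (SE). The Igf2 cKO libraries again spanned the controls. The chromosome 5 gene was at 11.04, 10.4 and 8.17 CPM in controls 1 to 3 and at 5.80, 8.66 and 9.22 CPM in cKO 1 to 3 (-0.33 ± 0.21 SE, adjusted p = 0.669, edgeR with Benjamini-Hochberg adjustment). Ugp2, which makes the UDP-glucose used to build glycogen, was at 425, 603 and 602 CPM in controls 1 to 3 and at 552, 783 and 604 CPM in cKO 1 to 3. Only cKO 2 was well above the rest, and the difference was 0.25 ± 0.19 (SE), or 0.09 without that library.

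The 5 genes of side branches were all below 0, from -0.06 to -0.30, and none was called. Gpd1, the cytosolic glycerol 3-phosphate dehydrogenase that returns NADH electrons by way of mitochondrial Gpd2, was at 580.3, 535 and 674 CPM in controls 1 to 3 and at 591, 429.6 and 676 CPM in cKO 1 to 3. Its groups overlapped, with cKO 2 the lowest (-0.08 ± 0.18 SE). Gpd2 had the same pattern, with 163 CPM in cKO 2 and 269 to 303 CPM elsewhere.

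Fbp2, the muscle fructose 1,6-bisphosphatase that runs against phosphofructokinase, was at 29.2, 39.2 and 39.6 CPM in controls 1 to 3 and at 36.5, 25.0 and 31.6 CPM in cKO 1 to 3 (-0.21 ± 0.17 SE). Tigar, a phosphatase that lowers the activator fructose 2,6-bisphosphate, was at 90.7, 119.7 and 166 CPM in controls 1 to 3 and at 131, 98.9 and 129.7 CPM in cKO 1 to 3 (-0.06 ± 0.21 SE). Both genes overlapped between the groups, and the controls of Tigar spread 1.83-fold.

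Bpgm, which makes 2,3-bisphosphoglycerate and is known chiefly from red cells, was the one side-branch gene with separate groups. Bpgm (chromosome 6, 34476207 to 34505613, plus strand) was at 93.3, 97.4 and 109 CPM in controls 1 to 3 and at 88.6, 67.4 and 86.4 CPM in cKO 1 to 3. All Igf2 cKO libraries were below all controls, cKO 1 by little. The difference of -0.30 ± 0.13 (SE; 95% interval from -0.59 to -0.02; unadjusted p = 0.0401) did not pass the test (adjusted p = 0.475, edgeR with Benjamini-Hochberg adjustment). Without cKO 2 the difference was -0.19. Red-cell markers other than Bpgm, led by the globins Hba-a1 and Hbb-bs, summed to 621, 465 and 451 CPM in controls 1 to 3 and to 325, 359 and 314 CPM in cKO 1 to 3. Of the 6 tested, 0 were above 0, with a median of -0.60, none was called, and none of the 7 listed was at 0 in every library. The part of red cells in the Bpgm value was not tested.

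Levels of different genes were compared as FPKM, which divides by the authors' listed gene length. Averaged over all 6 libraries, Aldoa led at 4256 FPKM, followed by Eno3 at 3054, Pgam2 at 2245, Pfkm at 929, Ldha at 798, Tpi1 at 713, Pkm at 628 and Pgk1 at 444. The chromosome 4 phosphoglucomutase was at 438 FPKM, and its libraries overlapped those of Pgk1, as those of Ldha overlapped those of Pfkm and Tpi1. Slc2a4 averaged 189 FPKM and Hk2 53.0, and Aldoc, the lowest, 0.117. Gapdh stood at only 135 FPKM, with a listed length of 4133 bases against 1420 in its main GENCODE transcript. Its place in this order therefore depends on the length used. So does the order among Pfkm, Ldha, Tpi1 and Pkm, whose lengths differ unevenly. The listed length was 3340 bases against 2879 for Pfkm and 3310 against 1766 for Ldha. For Tpi1 it was 2753 against 1607, and for Pkm 5001 against 2432.

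**Figure D4:**
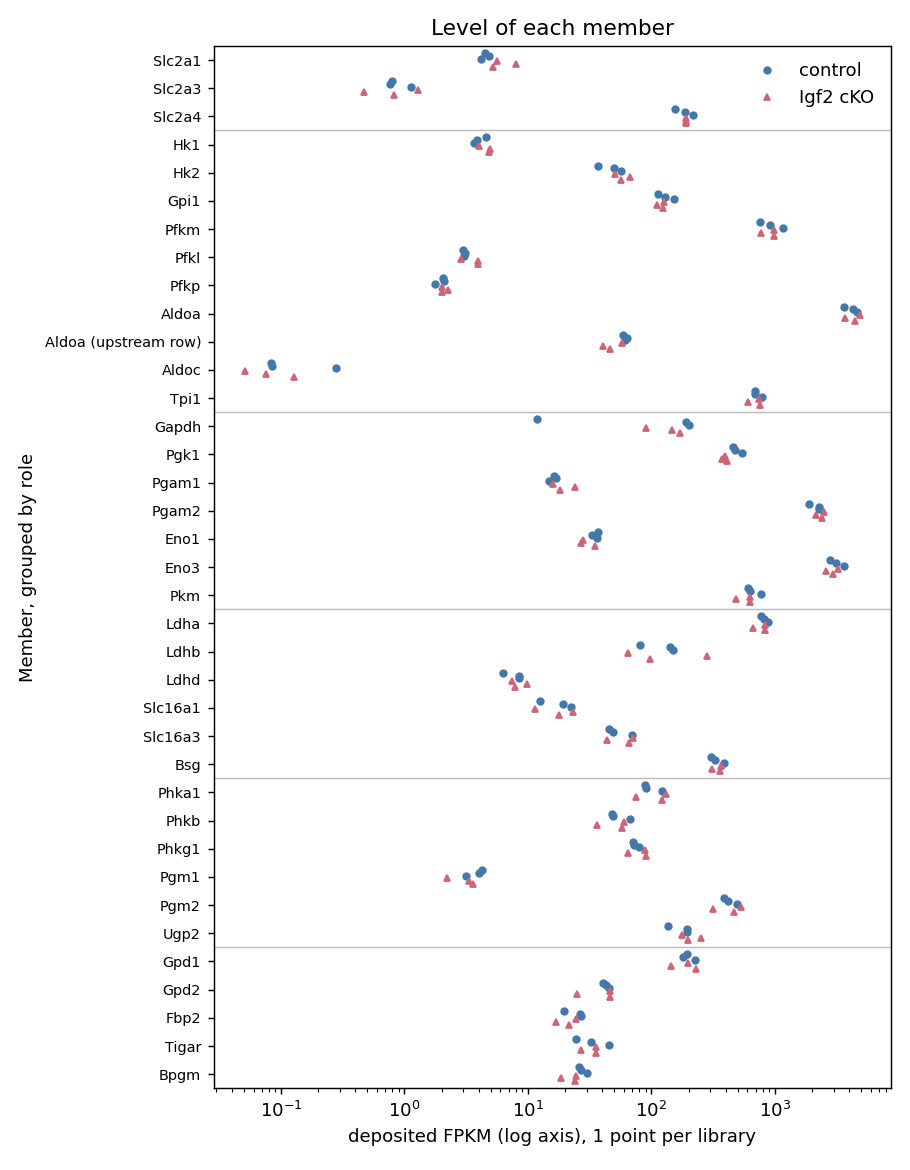
Deposited FPKM (x axis, log scale) of each row in each of the 6 libraries, with controls as circles and Igf2 cKO as triangles. The muscle isoforms Aldoa, Eno3 and Pgam2 average 4256, 3054 and 2245 FPKM, and the isoforms of other tissues such as Pfkl (3.31), Eno1 (32.8) and Pgam1 (17.8) lie far lower in both groups.

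Within steps, the muscle isoform held nearly all of the transcript in both genotypes. As a share of the summed FPKM of a step, Pfkm held 99.4%, Pgam2 99.2%, Eno3 98.9%, Slc2a4 96.8% and Hk2 92.3%, averaged over the 6 libraries. The last falls to 85.4% when divided by the main GENCODE transcript instead. The shares that varied were those of the lactate stage. Ldha held 89.8%, 84.4% and 84.8% of the lactate dehydrogenase FPKM in controls 1 to 3 and 92.1%, 69.3% and 88.7% in cKO 1 to 3. Slc16a3 held 78.4%, 71.5% and 75.9% of the 2 carriers in controls 1 to 3 and 86.2%, 65.3% and 78.6% in cKO 1 to 3. In both steps cKO 2 was the lowest library and cKO 1 the highest, and the groups overlapped. For all 10 shares compared, two-sided exact permutation tests over 3 against 3 libraries gave p from 0.2 to 0.9, with an adjusted p of 0.9 throughout. The smallest p this design allows is 0.1.

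Promoters of these genes were searched in RefSeq windows of 300 bases on GRCm38.p6, from 250 before to 50 after the start, because hypoxia-inducible factor and myogenic factors are known regulators of glycolytic genes. The searched letters, on both strands, were ACGTG (the core of the hypoxia response element), CANNTG (the E-box of myogenic factors, which overlaps the former in CACGTG) and the MEF2 motif. ACGTG was found in 21 of 45 windows of 32 names (46.7%), against 19.6% of 32851 windows of all genes. CANNTG was found in 66.7%, against 72.3%, and MEF2 in 1 window, that of Pgam2, against 3.19%. Several windows belong to one gene, some of them overlapping, and a match shows only that the letters are there. ACGTG holds a CG pair, and the windows were not matched to those of all genes in base composition.

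Shown are the promoters of the 2 phosphoglycerate mutases, a muscle and a general isoform of 1 step with very different levels, and those of Slc2a1 and Pgk1, the genes with the smallest p in each direction apart from the upstream Aldoa row. Capitals mark the matches on either strand. The Pgam2 window (chr11:5803747-5804046, minus strand) holds 5 CANNTG and the single MEF2 match, and the Pgam1 window (chr19:41911621-41911920, plus strand) holds 1 ACGTG and 0 of the others. The Slc2a1 window (chr4:119108495-119108794, plus strand) holds 1 ACGTG, and the Pgk1 window (chrX:106186850-106187149, plus strand) holds 2 ACGTG and 2 CANNTG. Slc2a1 was higher and Pgk1 lower in Igf2 cKO by estimate, neither was called, and both windows hold ACGTG. The part of this motif in their values was not tested.
Pgam2: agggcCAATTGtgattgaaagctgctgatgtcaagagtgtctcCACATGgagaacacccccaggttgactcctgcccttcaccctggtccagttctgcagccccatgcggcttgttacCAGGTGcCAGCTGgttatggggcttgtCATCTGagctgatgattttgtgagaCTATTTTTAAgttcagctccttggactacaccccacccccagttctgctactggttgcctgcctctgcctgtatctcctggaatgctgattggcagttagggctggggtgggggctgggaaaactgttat
Pgam1: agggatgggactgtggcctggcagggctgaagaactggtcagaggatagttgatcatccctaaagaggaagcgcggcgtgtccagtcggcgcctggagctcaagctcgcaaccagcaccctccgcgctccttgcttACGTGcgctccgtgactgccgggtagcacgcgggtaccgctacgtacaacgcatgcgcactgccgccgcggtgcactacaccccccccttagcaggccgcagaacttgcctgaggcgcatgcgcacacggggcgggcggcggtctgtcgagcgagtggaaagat
Slc2a1: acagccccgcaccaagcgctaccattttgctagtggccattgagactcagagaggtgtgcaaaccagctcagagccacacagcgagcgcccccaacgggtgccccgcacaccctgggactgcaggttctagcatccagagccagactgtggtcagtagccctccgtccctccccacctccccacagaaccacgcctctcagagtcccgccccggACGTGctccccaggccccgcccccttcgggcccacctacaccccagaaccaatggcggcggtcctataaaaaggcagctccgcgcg
Pgk1: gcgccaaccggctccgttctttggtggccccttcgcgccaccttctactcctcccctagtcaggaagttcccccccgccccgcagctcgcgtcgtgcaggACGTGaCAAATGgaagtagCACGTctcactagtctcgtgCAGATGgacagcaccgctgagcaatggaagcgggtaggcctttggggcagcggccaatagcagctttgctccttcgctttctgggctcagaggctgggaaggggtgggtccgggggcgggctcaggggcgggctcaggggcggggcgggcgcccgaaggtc

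The same libraries were low for most of these genes. Control 1 was the lowest control for 28 of the 36 tested rows, beside 35.1% of all genes, and control 3 was the highest control for 27, beside 36.3%. Within Igf2 cKO, cKO 2 was the lowest for 24 rows, beside 35.6% of all genes, and it was the lowest of all 6 libraries for 18, beside 18.9%. The 9 rows highest in cKO 2 within its group were Slc2a1, Hk1, Hk2, Pfkp, Pgam1, Ldhb, Ldhd, Slc16a1 and Ugp2. Together the 37 rows took 3.65%, 4.05% and 4.29% of all counts in controls 1 to 3 and 4.43%, 3.47% and 4.15% in cKO 1 to 3. The group means of this share were 3.99% ± 0.323 (SD, n = 3) and 4.02% ± 0.497 (SD, n = 3), and the groups overlapped fully. The lowest share was in cKO 2, where 12 fast-fibre markers summed to 77688 CPM, beside 101160 to 125050 CPM in the other 5 libraries. Of these markers Myh4 was lowest there, at 17313 CPM, beside 28676 to 46329 CPM elsewhere. Myh1 and Myh2 were instead highest in cKO 2, at 4892 and 2921 CPM. Tnnc2, too low to be tested, was at 0.62 CPM there and at 0.12 to 0.56 CPM elsewhere. Of the 11 tested, 2 were above 0, the median was -0.03 and none was called. Mitochondrial DNA genes took 10.6% of counts in cKO 2, beside 4.88% to 8.43% elsewhere. The part of fibre type in this pattern was not tested.

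**Figure D5:**
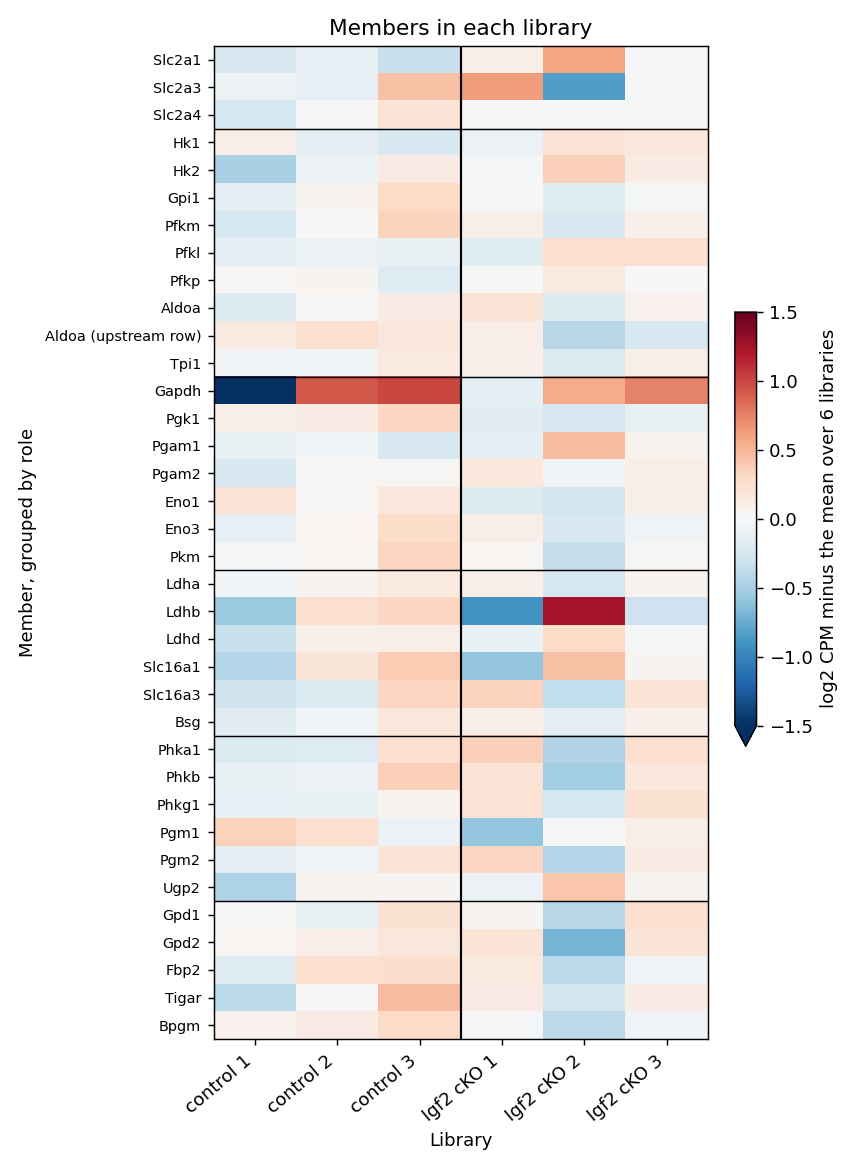
Level of each tested row in each library, as the difference in log2 CPM from the mean of that row over the 6 libraries. Columns are libraries and rows are genes grouped by role; control 1 and cKO 2 are the columns lowest of their group for 28 and 24 of the 36 rows, and Gapdh in control 1, past the lower end of the colour scale at -1.5, is the most extreme cell.

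Around these enzymes, 87 further genes of the pathway were listed by role, of which 80 were tested and 2 were called, 1 higher and 1 lower (background 0.182% higher and 0.0673% lower). Their median log2 fold change was -0.05, with 32 of 80 above 0. The list was drawn up with earlier results of these data known, so its calls beside the background are no test of the pathway. The called genes were regulators and not enzymes of the main path. Ppp1r3c, a subunit that brings protein phosphatase 1 to glycogen and favours its synthesis, was at 87.9, 69.7 and 85.4 CPM in controls 1 to 3 and at 729, 401 and 587 CPM in cKO 1 to 3. Every Igf2 cKO library was several times any control (log2 fold change 2.82 ± 0.22 SE, adjusted p = 0.00305, edgeR with Benjamini-Hochberg adjustment). Pfkfb3, a kinase that makes the phosphofructokinase activator fructose 2,6-bisphosphate, was at 782, 718 and 1035 CPM in controls 1 to 3 and at 245, 177 and 274 CPM in cKO 1 to 3. The groups were far apart (-1.86 ± 0.21 SE, adjusted p = 0.0118, edgeR with Benjamini-Hochberg adjustment), and without control 1 the adjusted p was 0.051.

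The other listed genes were given by role, with edgeR's test adjusted by Benjamini-Hochberg, and none of those that follow passed it. Of 4 kinases and phosphatases that set fructose 2,6-bisphosphate, Pfkfb1 had the next smallest p, at 49.3, 62.3 and 70.2 CPM in controls 1 to 3 and 37.2, 45.4 and 41.7 CPM in cKO 1 to 3 (-0.55 ± 0.14 SE, adjusted p = 0.236, and 0.0301 without the low-count filter). Of 12 genes that govern pyruvate entry to mitochondria, the pyruvate dehydrogenase phosphatase Pdp1 was at 125, 123 and 141 CPM in controls 1 to 3 and 88.2, 73.8 and 78.4 CPM in cKO 1 to 3 (-0.70 ± 0.11 SE, adjusted p = 0.0529, and 1.24e-05 by DESeq2). The groups of both genes were apart. Its relative Pdp2 had a log2 fold change of -0.92 ± 0.22 (SE), with an adjusted p of 0.201, and 0.0158 by DESeq2. The largest estimate of this role, named after its values were seen, was that of Pdk4, a kinase that switches pyruvate dehydrogenase off. Pdk4 was at 1030.3, 1031 and 1327 CPM in controls 1 to 3 and at 116, 1161 and 274 CPM in cKO 1 to 3. Of the Igf2 cKO libraries, cKO 2 lay within the range of the controls and the others far below (-1.13 ± 0.68 SE, adjusted p = 0.637). Without cKO 2 it was -2.53, with an adjusted p of 0.0214.

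Among the 12 glycogen genes Ppp1r3a, the main muscle glycogen-targeting subunit, had an estimate of -0.41 (adjusted p = 0.46). Among 20 other isoforms and carriers tested, Ugdh, which oxidises UDP-glucose, had 0.53, the carrier Slc16a8 0.76 and the transporter Slc2a12 -0.36, and the median was -0.05. Of 18 transcription factors and uptake regulators, the muscle homeobox factor Six4 had -0.58 (adjusted p = 0.141, and 0.0153 by DESeq2), Tbc1d4, which restrains GLUT4 at rest, -0.44, Myc -0.44, Foxk1 -0.31 and Foxk2 0.25. The 7 genes of the pentose phosphate branch had 6 above 0 and a median of 0.21, with Pgd at 0.30 and Rpe at 0.24. Tkt, a transketolase of this branch named after its values were seen, had the largest estimate, 0.55 (adjusted p = 0.637), and 0.05 without cKO 3. It was at 42.8, 36.9 and 24.6 CPM in controls 1 to 3 and at 37.5, 34.7 and 80.5 CPM in cKO 1 to 3. Tkt, G6pdx, Pgd, Rpe and Taldo1 were all highest in cKO 3. Adipocyte markers were highest there too, with sums of 476, 387 and 115 CPM in controls 1 to 3 and 341, 197 and 1043 CPM in cKO 1 to 3. Of these markers 8 of 8 were above 0, with a median of 0.81, none was called and none was at 0 in every library. The part of fat cells in these values was not tested. The 7 of the NADH shuttles had 1 above 0, with the aspartate-glutamate carriers Slc25a13 at -0.51 and Slc25a12 at -0.09. Without cKO 2 the Slc25a13 value was -1.24.

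In the authors' deposited table, each Igf2 cKO library was compared with the control of the same number. Of the glycolysis and lactate rows in the authors' deposited table, 1 had an adjusted p under 0.05 in the first comparison and 0 in the second and the third, beside 0.448%, 0.346% and 0.716% of the genes with a value. That row was Gapdh, for which the authors' deposited table gives log2 fold changes of 2.93, -0.38 and -0.25 in comparisons 1 to 3. The first of these sets cKO 1 against control 1, the library with the low Gapdh row. The authors' deposited table had 25 of the 37 rows higher in Igf2 cKO in the first comparison and 11 in each of the others.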

How the data were processed

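The genes and lists were chosen with earlier results of these data known. Per the labels' protocols, Trizol RNA was sequenced by Novogene on an Illumina instrument. The sources used here name no aligner, counting tool, strand setting or build. The deposited values, per the file headers, are whole-number counts and the authors' FPKM per gene and library, and the authors' log2 fold changes with p-values and adjusted p-values for 3 comparisons of 1 library against 1. Another 6 columns of per-sample values, whose names match no sample title, were not used. Of 54532 gene IDs, 54409 are in GENCODE M21, 53499 (98.3%) with the same coordinates, so positions are on GRCm38.

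Counts were tested with edgeR 4.0.16 in R 4.3.3 (quasi-likelihood F test, TMM, filterByExpr, genotype alone, all 6 libraries), with Benjamini-Hochberg adjustment over the 14867 genes tested. CPM are TMM-scaled. Standard errors come from the F statistic. Isoform shares of deposited FPKM used two-sided exact permutation tests. No 2 libraries were duplicates. Named were genes at an unadjusted p under 0.05, the most abundant isoform of each step, the 3 largest estimates in each direction, and Gapdh, Pkm, Bsg, Tigar and Bpgm; further pathway genes were named by p within their role. Exact windows of 50 and 100 bases were compared between main GENCODE transcripts of the genes and all other annotated transcripts. The fit was also run on counts simulated with known changes, and no result given here rests on that run. Alternatives were DESeq2 1.42.0, limma-voom 3.58.1, other size factors, other filters and thresholds, the replicate block, leaving out each library, and, chosen after seeing the data, pseudogene counts added and shares by main transcript length.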

Additional observations from a re-analysis of the deposited data

How the results depend on the processing

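None of the 36 rows was called under any alternative tried, DESeq2, limma-voom and each left-out library included. The count of all genes called moved from 37 to 282 without the low-count filter, 214 in DESeq2, 62 at an adjusted p under 0.1 and 235 by the rule in the series text. It was 8, 15 and 13 without controls 1, 2 and 3, and 39, 68 and 17 without cKO 1, 2 and 3. Calls among the further pathway genes moved from 2 to 6 without the filter, to 5 in DESeq2, and to between 1 (without control 1, which lost Pfkfb3) and 3 (without cKO 2, which added Pdk4) with a library left out. Estimates near 0 changed sign: Gapdh was -0.0081 with upper quartile factors and -0.067 with pseudogene counts added, and Pgm2 was -0.021 in limma-voom and -0.014 in the replicate block. Where leaving out a library changed the sign of a log2 fold change, the ranges were Slc2a3 -0.48 to 0.24, Slc2a4 -0.088 to 0.15, Pfkm -0.19 to 0.12, Aldoa -0.043 to 0.16, Tpi1 -0.086 to 0.059, Gapdh -0.54 to 0.41, Ldha -0.15 to 0.012, Ldhb -0.63 to 0.61, Ldhd -0.017 to 0.19, Slc16a1 -0.31 to 0.18, Slc16a3 -0.012 to 0.35, Bsg -0.051 to 0.13, Phka1 -0.036 to 0.33, Phkb -0.22 to 0.11, Pgm2 -0.15 to 0.20, Gpd1 -0.23 to 0.087, Gpd2 -0.28 to 0.10, Tigar -0.25 to 0.19, Slc25a12 -0.22 to 0.0057. For isoform shares, in percentage points of Igf2 cKO minus control, they were Hk2 -0.72 to 1.77, Pgam2 -0.18 to 0.054, Ldha -7.31 to 4.09, Slc16a3 -3.30 to 7.17, Gpd1 -0.11 to 1.97, Pgm2 -0.014 to 0.30. The cause of these moves was not tested. The median of the 36 rows ran from -0.09 to 0.12 with a library left out, and the difference in their share of counts from -0.19 to 0.30 percentage points. No scaling moved the median of all genes by over 0.1. Deviations of libraries with the same number correlated at 0.16, 0.06 and -0.04, and 2 of the 3 controls correlated best with their own number. From so few libraries, these values cannot decide whether the numbers pair them. The replicate block called 35 genes and none of the 36 rows. With 3 libraries a group, changes of less than about 1.5-fold lay within the 95% interval of many rows. Totals of 16184371 to 17905203 counts left only Aldoc, of the 37 rows, too low to test.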
